A study of Mus musculus with 145 samples.

Results

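The tumours described here are the 51 mammary tumours that grew under the PI3K alpha inhibitor BYL719, divided by the mammary gland they arose in. The series also holds 94 untreated tumours. The gland was read from the text after the mouse number in each title. Tumours whose gland began with 1, 2 or 3 (the cervical and thoracic glands) were taken as anterior, and those whose gland began with 4 or 5 (the abdominal and inguinal glands) as posterior. This gave 38 anterior tumours from 25 mice and 13 posterior tumours from 12 mice. All 12 mice with a posterior tumour also had at least 1 anterior tumour, 18 anterior tumours in all. The 94 untreated tumours, 54 anterior and 40 posterior, serve as the background of the same measurement. By its title, 1 of the 54 untreated anterior libraries repeats another of the same mouse and gland, so they hold 53 distinct tumours, and both libraries hit 0 genes.

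All groups carried the same alleles, WAP-Cre, LSL-PB, LSL-PIK3CA(H1047R) and ATP1. The WAP promoter is active in milk-producing mammary epithelium from late pregnancy on, so the activated PIK3CA gene and the piggyBac (PB) transposase were both switched on by Cre in these cells after mating. The untreated tumours had the same alleles and received no drug. Mice of the resistant group were given BYL719 (alpelisib) daily at 30 mg per kg once a tumour had reached 250 mm3, and a tumour counted as resistant when it grew over consecutive measurements under treatment. The ages of the mice were not in the labels. The libraries hold genomic DNA and no expression values, so the labelled tissue, a tumour of the mammary fat pad, could not be checked against marker genes.

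A mouse has mammary glands in pairs along the milk line, from the neck to the groin, and each pair forms at a set position under its own mix of signals, including the ectodysplasin, fibroblast growth factor and WNT pathways. The piggyBac transposon moves by cut and paste, from the ATP1 donor on chromosome 10 in these mice, and inserts at the 4 letters TTAA. ATP1 can switch a gene on from its promoter or stop a transcript with its splice acceptors and polyadenylation signals, so an insertion can activate a gene or disrupt it. In a growing tumour, cells that hold an advantageous insertion leave more descendants, and recurrent insertions in 1 gene across tumours are the usual sign of such selection. PI3K alpha inhibition can be bypassed by signals that run beside or below PI3K, and the RAS-MAPK cascade, restrained by the RAS GTPase-activating protein neurofibromin (Nf1), is a well known example.

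A site is a position and strand with 10 or more reads in a library. A position found in several tumours was kept in the tumour with most reads, and a tumour is said to be hit in a gene when it kept at least 1 site inside that gene's deposited interval. The following sites are examples from genes described below. They are given in mm10 coordinates, on the strand of the site, with the TTAA target letters in capitals. They are the leading sites of Nf1 in the anterior and posterior tumours of 1 mouse, a position that these tumours share, the leading posterior sites of Fbxw7, and the leading sites of Specc1l, Stk39 and Lrba in posterior and of Edar in anterior tumours.
Nf1, anterior 6, chromosome 11 position 79378016, plus strand: TTAAagat
Nf1, anterior 6, chromosome 11 position 79364071, plus strand: TTAActtg
Nf1, posterior 3, chromosome 11 position 79426297, plus strand: TTAAgagt
Nf1, posterior 3 and anterior 6, chromosome 11 position 79437937, plus strand: TTAAaaaa
Nf1, posterior 3, chromosome 11 position 79356910, minus strand: TTAAgcaa
Fbxw7, posterior 13, chromosome 3 position 84839424, minus strand: TTAAactt
Fbxw7, posterior 3, chromosome 3 position 84964751, plus strand: TTAAagta
Specc1l, posterior 6, chromosome 10 position 75297187, minus strand: TTAAtgga
Stk39, posterior 1, chromosome 2 position 68312759, plus strand: TTAAtctc
Lrba, posterior 10, chromosome 3 position 86660153, plus strand: TTAAgttc
Edar, anterior 28, chromosome 10 position 58640455, plus strand: TTAAaggg
Edar, anterior 35, chromosome 10 position 58611522, minus strand: TTAAgcat

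Several facts of the libraries bear on every count. In all 51 resistant libraries, and in none of the untreated ones, reads lay at the same 3 positions, on chromosomes 7, 10 and 11, and these positions were left out. They held a median of 35.1% of the reads of an anterior library (4.47 to 92.5%) and 29.1% of a posterior one (6.07 to 86.0%), and this share did not pass a permutation test between gland groups (p = 0.768). A further 163 positions with 10 or more reads in a resistant tumour were read in 10 or more resistant libraries, and 143 of them were kept in a resistant tumour. The titles take 2 forms, Tgtumor (27 anterior and 8 posterior tumours) and Mouse (11 anterior and 5 posterior), and values within each form are given for the number of sites and for the genes described at most length. Read counts follow both the share of cells with an insertion and the efficiency of its amplification, which cannot be told apart here.

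The first question was whether tumours of anterior and posterior glands carried different numbers of insertions. Anterior tumours held from 0 to 2793 sites with a median of 486.5, and posterior tumours from 18 to 3320 with a median of 455. The ranges overlapped almost completely, as the plot of sites by gland shows. On the log10 scale the mean was 2.56 ± 0.665 (SD, n = 38) in anterior and 2.67 ± 0.551 (SD, n = 13) in posterior tumours, a posterior to anterior ratio of 1.29 with a 95% interval from 0.503 to 3.34. This difference did not pass the test (permutation test over tumours, two-sided, p = 0.599; adjusted over 6 measures, 0.678). Within the Tgtumor libraries the ratio was 1.51 (permutation p = 0.325), and within the Mouse libraries it was 1.48 (exact permutation p = 0.712). Without the libraries in which the 3 common positions held over 60% of the reads, an alternative chosen after seeing the data, the ratio was 0.899 (permutation p = 0.690).

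**Figure D1:**
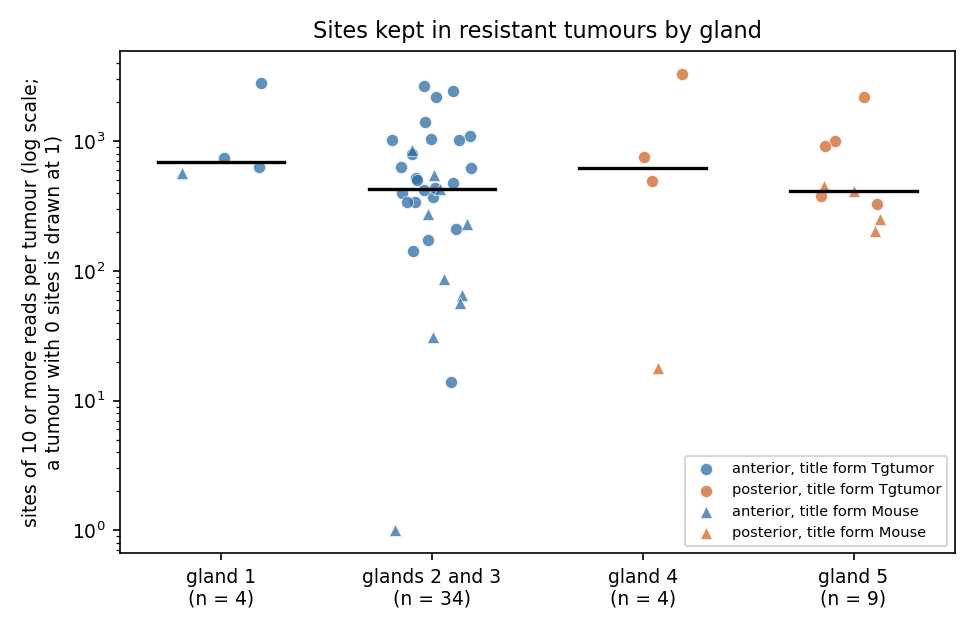
Number of kept sites per resistant tumour (log axis) by mammary gland, with 1 point per tumour (circles for the title form Tgtumor, triangles for Mouse), a line at each median and the tumour with 0 sites drawn at 1. Gland 1 spans 564 to 2793 sites, glands 2 and 3 span 0 to 2641, gland 4 spans 18 to 3320 and gland 5 spans 203 to 2178, and all 4 overlap.

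By single gland, the 4 tumours of gland 1 held 2793 sites (anterior 24), 739 (anterior 27), 638 (anterior 2) and 564 (anterior 29), with a median of 688.5. The 34 tumours of glands 2 and 3 ranged from 0 to 2641 with a median of 431. In gland 4, posterior 3 held 3320 sites, posterior 4 held 755, posterior 8 held 494 and posterior 13 held 18. The 9 tumours of gland 5 ranged from 203 to 2178 with a median of 413. A few tumours held much of each group: posterior 3, 6 and 1 together held 6499 of the 10709 posterior sites (60.7%), and the 3 richest anterior tumours held 7890 of 26569 (29.7%).

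The 12 mice with tumours of both kinds allow the comparison within an animal. By the mean of log10 sites, the posterior tumours held more sites than the anterior ones in 9 of these 12 mice. In the mouse of posterior 6 the anterior tumours held 275 and 549 sites and the posterior tumour 2178, and in the mouse of posterior 11 the numbers were 86 and 455. In the mouse of posterior 9 the anterior libraries held 0 and 1033 sites and the posterior one 413, but the library with 0 sites had 51 reads in all. The other 3 mice had fewer posterior sites, with 2793 anterior and 494 posterior sites in the mouse of posterior 8 and 31 and 18 in that of posterior 13. In the third, the mouse of posterior 7, the anterior tumours held 143 and 2456 sites and the posterior tumour 329. The within-mouse ratio was 1.91 with an interval from 0.706 to 5.73 and did not pass the exact test (exact permutation within mice, two-sided, p = 0.211; adjusted 0.421). Without the library of 51 reads, the only resistant one of under 10000, it was 1.43 (exact p = 0.285). In 4 of the 12 mice the titles were of both forms. In the mice of posterior 6 and posterior 10 every anterior title had one form and the posterior title the other, so that form and gland cannot be told apart there. Within mouse and title form, which leaves 10 mice (an alternative chosen after seeing the data), the ratio was 2.45 (exact p = 0.216), and 1.38 without the library of 51 reads (exact p = 0.432).

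**Figure D2:**
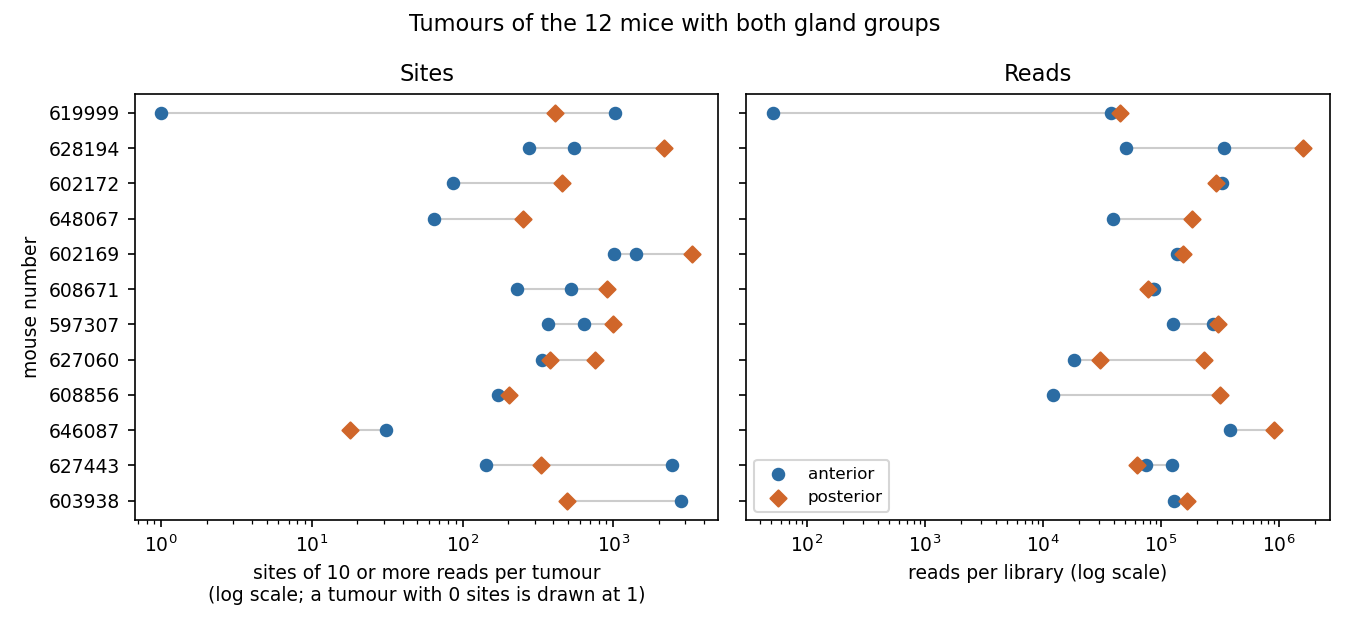
Kept sites per tumour (left) and reads per library (right), both on log axes, in the 12 mice (rows) that had both anterior (circles) and posterior (diamonds) resistant tumours. The posterior tumours lie above the anterior mean of log10 sites in 9 mice and below it in 3, and the library with 0 sites is drawn at 1. That library, of 51 reads, lowers the anterior mean of the mouse of posterior 9. The other anterior tumour of this mouse held 1033 sites and the posterior one 413.

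Within mice, mean sequencing depth was also higher in posterior libraries, but sites and reads did not move together in every mouse. In the mouse of posterior 11, sites went from 86 to 455 and reads from 326599 to 290006. In that of posterior 13, sites went from 31 to 18 and reads from 385224 to 904962. The mouse of posterior 2 also had more sites and fewer reads, and that of posterior 8 fewer sites and more reads. In the remaining mice both moved the same way. Anterior libraries held from 51 to 1008751 reads (median 125802) and posterior libraries from 30514 to 1604365 (median 184443), a ratio of 1.82 over all tumours (permutation p = 0.231). Within mice the posterior libraries held 3.04 times the reads of the anterior ones, with an interval from 1.10 to 8.58, and more in 9 of 12 mice (exact permutation p = 0.0320; adjusted over 6 measures, 0.192). Without the library of 51 reads this ratio was 2.31 (exact p = 0.0185; adjusted 0.111). Within mouse and title form it was 2.96 (exact p = 0.0608), and 1.57 without that library (exact p = 0.122). Outside the 3 common positions the within-mouse ratio of reads was 3.32 (exact p = 0.0353), higher in 10 of 12 mice. Over 50 resistant libraries with a site, log10 sites and log10 reads outside the common positions correlated with Pearson's r = 0.400 (permutation p = 0.00394) and Spearman's rho = 0.489 (permutation p = 0.00046), and r was 0.352 without the 2 farthest libraries. For total reads r was −0.044 (permutation p = 0.761) and rho was 0.0997 (permutation p = 0.490). Adjusted over these 2 relations, the p of r was 0.00788 for reads outside the common positions and that of rho 0.00092. Tumours of 1 mouse enter as separate points. With each library thinned to 20000 reads and shallower ones left out, the ratio of sites over all tumours was 1.09 (permutation p = 0.799). The thinning drew on all reads, those at the 3 common positions included, so reads outside these positions still differed between libraries. The part of depth in the within-mouse numbers was not tested.

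The remaining measures of the whole insertion pattern did not pass the test either. The number of genes hit ranged from 0 to 1139 (median 234.5) in anterior and from 12 to 1345 (median 223) in posterior tumours, a ratio of 1.31 with an interval from 0.543 to 3.17 (permutation p = 0.555). Within mice this ratio was 1.92 (0.771 to 5.13; exact p = 0.162), with more genes hit in posterior tumours in 9 of 12 mice. The mouse of posterior 9 is among them only through the library of 51 reads, which hit 0 genes. Its other anterior tumour hit 473 genes and its posterior tumour 195. The median share of sites inside genes was 49.8% against 49.6%, and the mean difference was 0.765 percentage points (−1.52 to 3.05; permutation p = 0.510). On the donor chromosome 10, where piggyBac reinsertions near the donor collect, lay a median of 20.4% of anterior and 19.9% of posterior sites, with a mean difference of 1.43 points (−2.30 to 5.16; permutation p = 0.445). The median share of sites at TTAA was 94.99% in anterior and 94.8% in posterior tumours. None of the 6 measures passed the adjusted threshold over tumours or within mice.

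The site with most reads of a tumour is often read as a mark of its largest clone. It held a median of 5.42% of the reads at kept sites in the 37 anterior tumours with a site and 3.23% in the 13 posterior tumours, a mean difference of −1.10 points (−6.09 to 3.84; permutation p = 0.678). This top site lay inside a gene in 23 of 37 anterior and 9 of 13 posterior tumours, and on chromosome 10 in 9 and 3. In 5 anterior tumours and in 0 posterior tumours it lay in Trps1. Among anterior tumours, the top site of anterior 17 lay in Met, the receptor of hepatocyte growth factor, and held 6202 reads (31.05% of its kept reads), and that of anterior 6 lay in Nf1 with 11401 reads. Among posterior tumours, the top sites included Fbxw7 in posterior 3 (4075 reads), the transcription factor gene Foxp1 in posterior 9 (1846 reads), the polarity gene Pard3b in posterior 11 (19013 reads) and Hivep2 in posterior 1 (6636 reads). The top site was at a position read in 10 or more resistant libraries in 8 anterior and 5 posterior tumours, among them those of posterior 11, 12 and 13. The tumours named here were chosen after their values were seen.

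Positions shared between tumours of 1 mouse were counted before each was kept in a single tumour. Of the 19 same-mouse pairs of an anterior and a posterior tumour, 1 includes the library of 51 reads, which has no position of 10 or more reads. Each of the other 18 pairs shared at least 1 position of 10 or more reads, a median of 1.34% of the smaller set of sites. For anterior and posterior tumours of different mice the median was 1.16% over 463 pairs, of which 21 shared no position. For 15 pairs of anterior tumours of the same mouse it was 1.54%, and for 651 such pairs of different mice 1.33%. These medians are a description, since pairs share tumours. Of the 102 shared entries in same-mouse pairs, 83 lay at positions read in 10 or more resistant libraries, 26 had 100 or more reads in both tumours, and 0 had 1000 or more in both.

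The second question was whether the genes hit differed. Of 13391 gene intervals, 7119 were hit in any resistant tumour, 5823 in an anterior and 3333 in a posterior tumour. Both groups hit 2037, which is 61.1% of the posterior and 34.98% of the anterior genes. Anterior tumours held 26569 kept sites and posterior tumours 10709. Whether this overlap differs from that of genes hit at random was not tested. Fisher's exact test was run on the 762 genes hit in at least 5 of the 51 tumours, and none passed an adjusted p of 0.05 (Benjamini-Hochberg; percent called 0), nor did any within mice, where the exact p was under 0.05 unadjusted for 12 genes (1.57%). The unadjusted p was under 0.05 for 14 genes (1.84% of those tested), all with a higher share of posterior tumours, and for 0 genes with a higher share of anterior tumours (0%). With 38 against 13 tumours, all 762 genes could have reached that value on the posterior side but only 159 on the anterior side. In a logistic model with the log10 number of sites of the tumour as a covariate, 64 genes had an unadjusted p under 0.05, 23 higher in posterior and 41 higher in anterior tumours. None passed the adjusted threshold (likelihood ratio test, smallest adjusted p = 0.546). This test is a chi-square approximation and not exact. It is rough for genes with few hits, and 57 of the genes tested had no posterior tumour hit. The share of tumours hit was higher in posterior tumours for 407 genes (53.4%) and in anterior tumours for 355 (46.6%), with a median difference of 2.23 percentage points. Among untreated tumours the same 762 genes were higher in posterior glands in 357 cases (46.9%) and in anterior glands in 401 (52.6%).

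**Figure D3:**
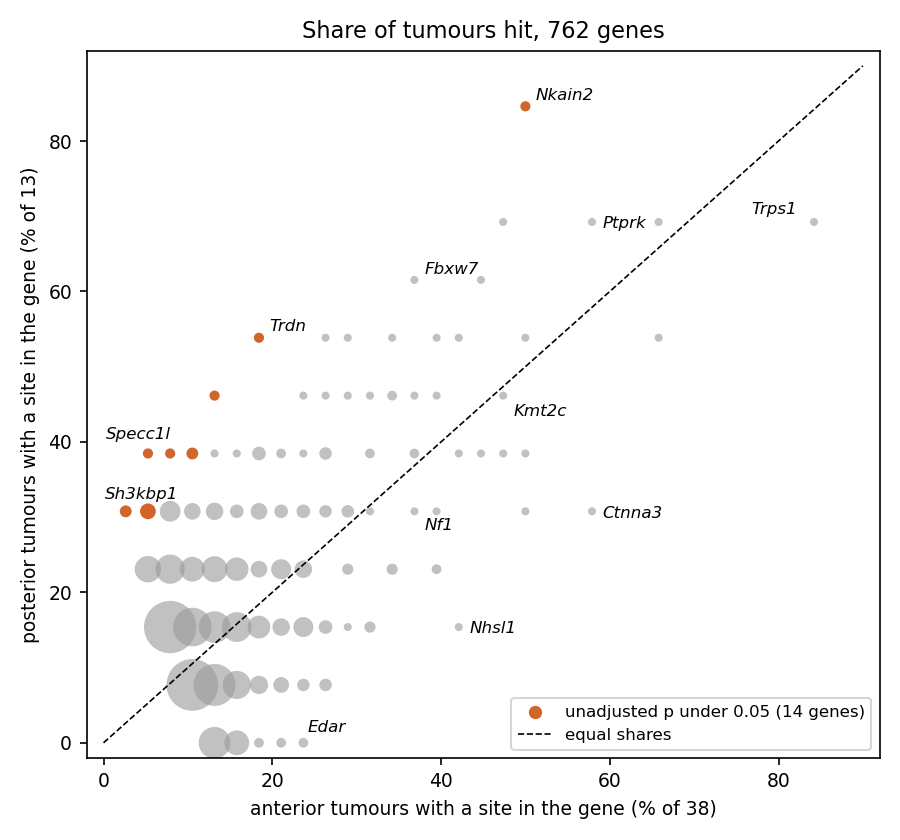
Share of the 38 anterior resistant tumours hit (x axis, percent) against the share of the 13 posterior ones (y axis, percent) for the 762 genes tested, with dots sized by the number of genes, the 14 genes of unadjusted p under 0.05 coloured and the diagonal of equal shares dashed. Nkain2 stands at 50 and 84.6%, Trps1 at 84.2 and 69.2% and Edar at 23.7 and 0%, and no gene passed the adjusted threshold.

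None of the gene differences that follow passed the adjusted test (Fisher's exact test, adjusted p = 1 for each), so they are given as values. Specc1l, a protein that links actin and microtubules, had the smallest p on the posterior side. It was hit in 2 of 38 anterior tumours (5.26%) and 5 of 13 posterior tumours (38.5%), with an exact p of 0.00839, and within mice the exact p was 0.0761. The posterior sites had 181, 53, 22, 13 and 13 reads and the anterior ones 139 and 18, so they were mostly minor sites of their libraries. In untreated tumours the direction was the other way, with 9 of 54 anterior and 1 of 40 posterior tumours hit (exact p = 0.0401). The resistant difference lay in the Tgtumor libraries, with 7.41% of anterior and 62.5% of posterior tumours hit (exact p = 0.00304), and the Mouse libraries had 0 hits in either gland group. The gene lies on the donor chromosome, at chr10:75210073-75312400.

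Stk39, a kinase that controls cation-chloride cotransporters, at chr2:68210447-68473981, was hit in 1 anterior tumour (2.63%, 46 reads) and 4 posterior tumours (30.8%). The posterior sites had 569, 547, 65 and 34 reads and came from 3 mice, none of which had a hit in an anterior tumour. The exact p was 0.0121 over tumours and 0.0370 within mice. In untreated tumours it was hit in 3 of 54 anterior and 8 of 40 posterior tumours (exact p = 0.0492, and 0.0506 without the repeat library), the same direction. Lrba, a vesicle trafficking protein, was hit in 3 anterior and 5 posterior tumours (7.89 and 38.5%; exact p = 0.0190, within mice 0.0247), and one of its posterior sites had 2333 reads. Within mouse and title form the exact p was 0.0556 for Stk39 and 0.0185 for Lrba. Its untreated counts were 10 of 54 and 10 of 40 (exact p = 0.458).

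Sh3kbp1, an adaptor of CBL in the endocytosis of receptor tyrosine kinases, was hit in 1 anterior tumour (20 and 15 reads) and 4 posterior tumours. The posterior site with most reads, 993 in posterior 6, lay at CTAT and not at TTAA. Trdn, which encodes the muscle calcium release protein triadin and lies on chromosome 10, was hit in 7 tumours of each kind (18.4 and 53.8%; exact p = 0.0273, within mice 0.0185). The untreated counts of Trdn went the other way, with 27 of 54 anterior and 16 of 40 posterior tumours (exact p = 0.404). Nkain2, a long gene of 1203 kb on chromosome 10 whose product binds the sodium pump, was hit in 19 anterior (50%) and 11 posterior tumours (84.6%). In the 12 mice, 5 had Nkain2 hits in posterior tumours alone and 0 in anterior tumours alone (exact p = 0.0484 over tumours and 0.0340 within mice). Within mouse and title form the exact p was 0.0532 for Nkain2 and 0.0417 for Trdn. The untreated shares of Nkain2 were 37 of 54 and 27 of 40 tumours (exact p = 1).

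The RIKEN gene 5730522E02Rik was hit in 5 anterior and 6 posterior tumours (13.2 and 46.2%; exact p = 0.0210 over tumours and 0.0768 within mice), all with titles of the Tgtumor form, and in untreated tumours in 10 of 54 and 4 of 40 (exact p = 0.381). The cohesin subunit gene Stag1, the ETS-family repressor gene Etv6, the centriole gene Cep128, the semaphorin gene Sema3e and the heparan sulfate enzyme gene Ndst4 were each hit in 2 anterior and 4 posterior tumours (exact p = 0.0307 for each). Cdk6, a cyclin-dependent kinase of the G1 phase, was hit in 0 anterior and 3 posterior tumours and so fell below the 5 tumours needed for the test. Its largest site per tumour had 146, 101 and 27 reads, and untreated tumours held 6 anterior and 2 posterior tumours with a Cdk6 hit.

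On the anterior side the smallest p belonged to Edar and Dpp10. Edar, the ectodysplasin receptor that acts in the formation of mammary placodes and hair follicles, lies at chr10:58600788-58677696 on the donor chromosome. It was hit in 9 anterior tumours (23.7%) of 7 mice and in 0 of 13 posterior tumours, an interval that reaches 24.7% (exact binomial, 95%). The 10 sites had from 12 to 233 reads, 2 of them in anterior 4, and the exact p was 0.0900 over tumours and 0.222 within mice. In untreated tumours Edar was hit in 6 of 54 anterior and 4 of 40 posterior tumours (exact p = 1). Dpp10, a subunit of potassium channels, had the same counts of 9 and 0, with 14 to 976 reads per tumour.

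Hs6st3, a heparan sulfate sulfotransferase gene, and Iqschfp were each hit in 8 anterior and 0 posterior tumours (exact p = 0.0958). The long cadherin-associated gene Ctnna3 was hit in 22 anterior and 4 posterior tumours (57.9 and 30.8%; exact p = 0.116) and Nhsl1 in 16 and 2 (42.1 and 15.4%; exact p = 0.103). Ctnna3 and Nhsl1 both lie on the donor chromosome 10. Fstl5 was hit in 7 anterior and 0 posterior tumours (exact p = 0.169), and in untreated tumours in 8 of 54 and 0 of 40 (exact p = 0.0191). Arhgap35 was also hit in 7 and 0 (exact p = 0.169). Arhgap15 and Babam2 were each hit in 10 and 1 (26.3 and 7.69%; exact p = 0.250). Of the 10 genes named for a small p on the posterior side, 6 were also higher in posterior glands among untreated tumours, beside 46.9% of all 762 genes tested. Of the 10 named on the anterior side, 5 were also higher in anterior glands, beside 52.6% of all genes tested. The median untreated difference, posterior minus anterior, was 0.139 points for the posterior-side genes and −0.185 points for the anterior-side genes.

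**Figure D4:**
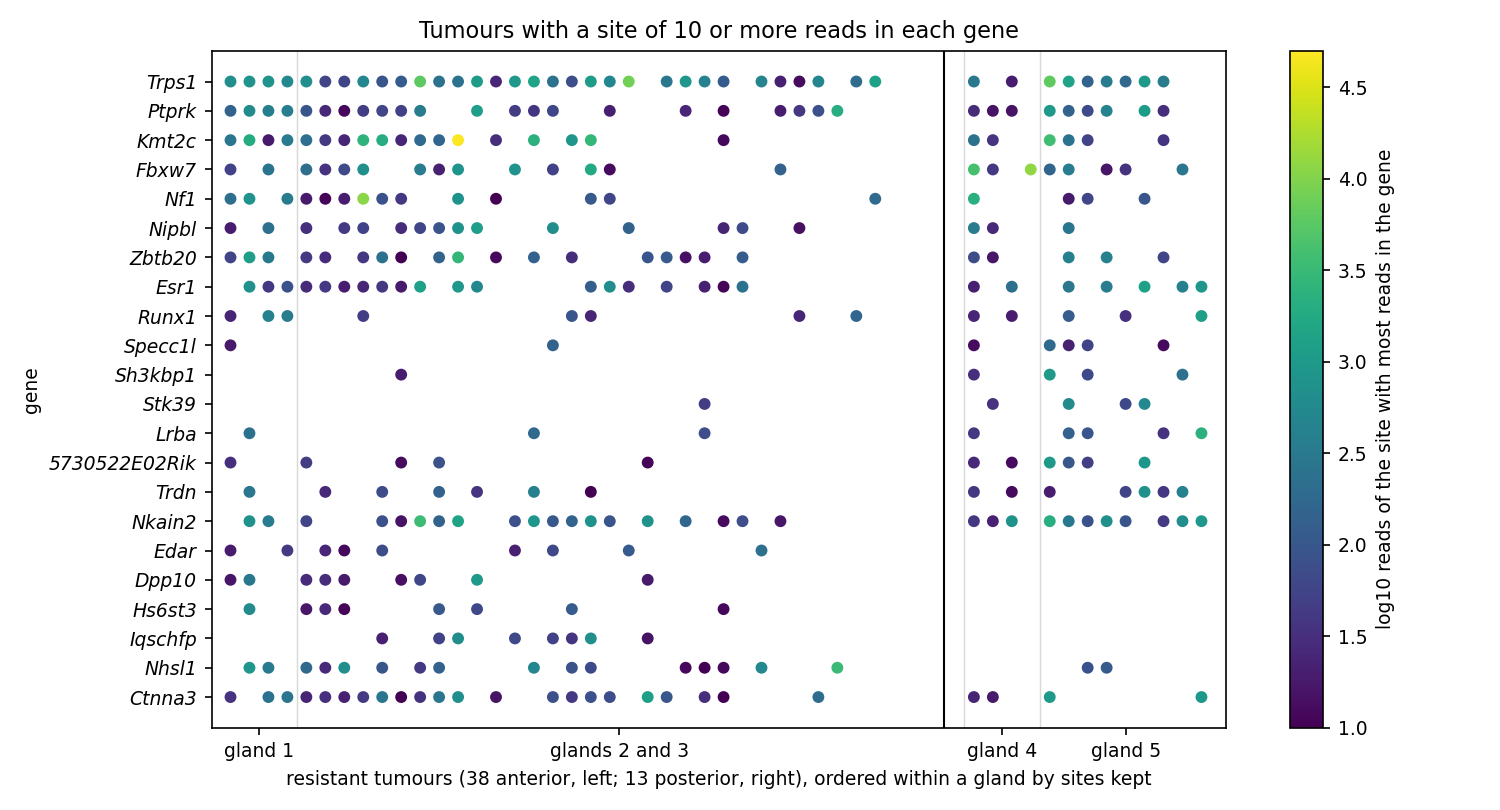
Tumours with a hit (dots) in a selection of genes (rows), in the 38 anterior and 13 posterior resistant tumours (columns, by gland), coloured by the log10 reads of the largest site. Trps1 has dots in 32 and 9 tumours and Edar in 9 and 0, and the dots of Edar stay at or below 233 reads.

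Trps1, a GATA-type transcriptional repressor gene at chr15:50654759-50892041, was hit in the largest share of anterior tumours, 32 of 38 (84.2%, 182 sites). It was hit in 9 posterior tumours (69.2%, 70 sites), as many as Ptprk, Pcdh15 and Grik2 and fewer than the 11 of Nkain2. The exact p was 0.253, and the untreated counts were 40 of 54 and 33 of 40. The largest Trps1 site per hit tumour had 13 to 8157 reads in anterior (median 477) and 19 to 6299 in posterior tumours (median 332), so the read ranges overlapped. The largest site of each group, in anterior 35 and in posterior 6, lay at a position read in 15 and 14 resistant libraries.

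Nf1, at chr11:79337892-79581609, was hit in 14 anterior (36.8%) and 4 posterior tumours (30.8%), with an exact p of 0.750. The posterior tumours were hit once each in posterior 1 (18 reads), posterior 2 (60 reads) and posterior 5 (93 reads), whereas posterior 3 held 20 of the 23 posterior sites. Posterior 3 comes from the same mouse as anterior 6, whose Nf1 sites of 11401 and 7348 reads were the 2 largest of all resistant tumours. The leading sites of posterior 3, with 2251, 1328 and 1176 reads, were at other positions than these 2. The tumours shared 2 Nf1 positions, at 79437937 with 35 reads in anterior 6 and 1328 in posterior 3, and at 79494349 with 22 and 64 reads. The first was read in 7 and the second in 2 resistant libraries. Of the Nf1 sites, 12 of 22 anterior and 13 of 23 posterior ones ran in the direction of the gene. Without posterior 3, the posterior minus anterior difference in the Nf1 share was −11.8 points (exact p = 0.510). By title form, 40.7% of anterior and 50% of posterior Tgtumor libraries were hit, and 27.3 and 0% of Mouse libraries.

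Fbxw7, the substrate-binding subunit of a ubiquitin ligase that degrades MYC, cyclin E and NOTCH, lies at chr3:84813577-84979198. It was hit in 14 anterior (36.8%) and 8 posterior tumours (61.5%), a difference of 24.7 points with an exact p of 0.194. This difference lay in the Mouse libraries, where 9.09% of anterior and 80% of posterior tumours were hit (70.9 points, exact p = 0.0128). In the Tgtumor libraries the shares were 48.1 and 50% (1.85 points, exact p = 1), and the difference between the title forms was not tested. The largest site per posterior tumour had 12258 reads in posterior 13, 4075 in posterior 3, and from 16 to 353 in the other 6. The site of posterior 13 lay at a position read in 12 resistant libraries, and posterior 3 held 16 of the 25 posterior sites. In untreated tumours the direction was the other way, with 16 of 54 anterior and 5 of 40 posterior tumours (exact p = 0.0781, and 0.0491 without the repeat library). The interval of Arfip1, chr3:84496064-85889518, contains that of Fbxw7 whole, so every Fbxw7 site is also an Arfip1 site.

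**Figure D5:**
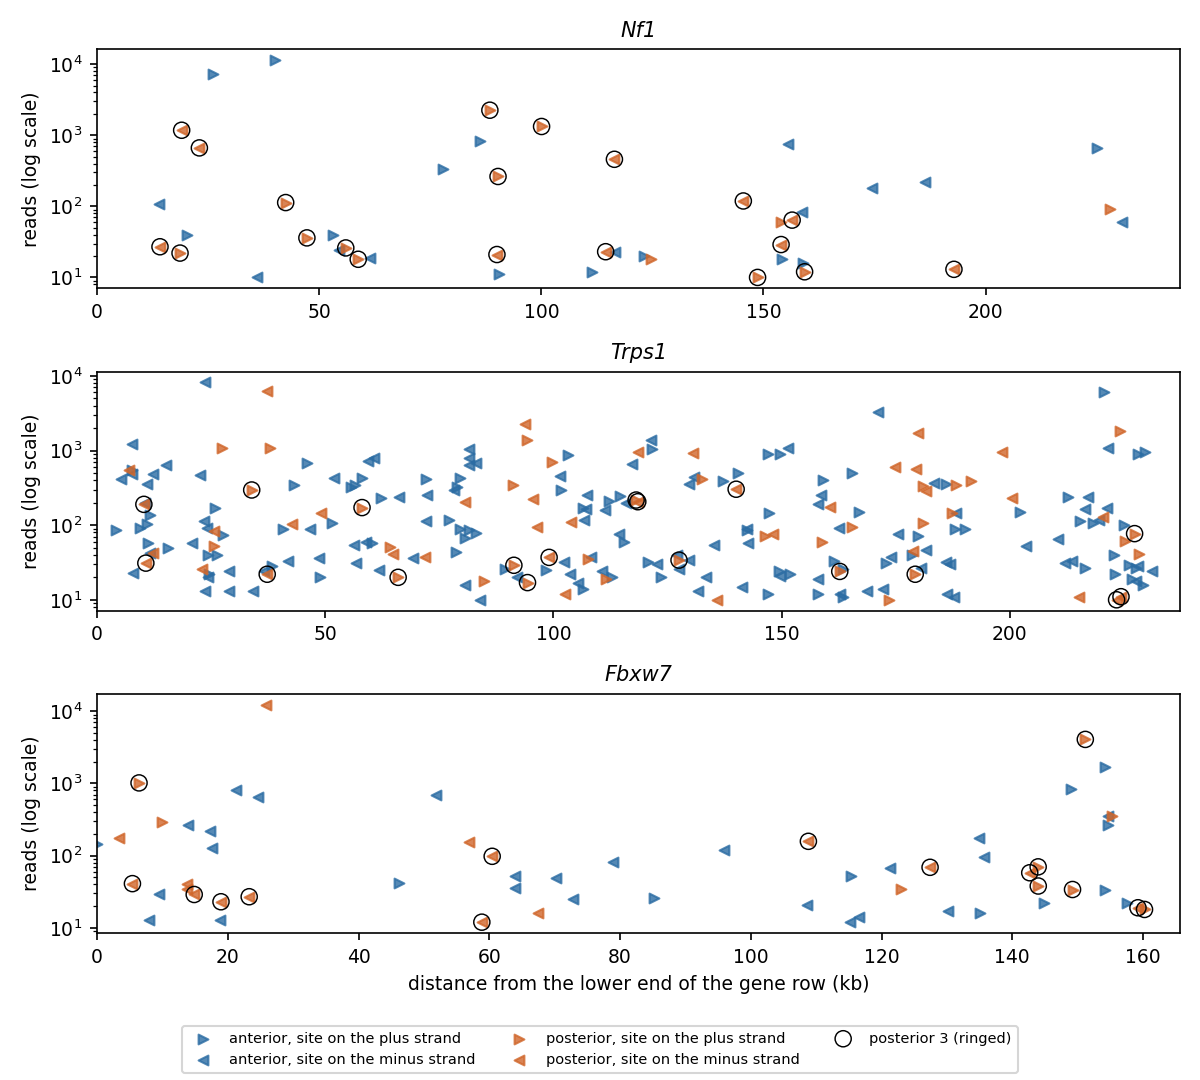
Kept sites along Nf1, Trps1 and Fbxw7 (x axis, distance from the lower end of the interval in kb; y axis, reads on a log scale), with anterior and posterior tumours in separate colours, triangles for the strand and rings for posterior 3. Most posterior sites of Nf1 (20 of 23) and of Fbxw7 (16 of 25) are ringed, and sites of both gland groups spread along each gene.

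Other recurrent genes are given as anterior and then posterior tumours, and none passed the adjusted test. The histone H3 lysine 4 methyltransferase gene Kmt2c was hit in 18 and 6 tumours (47.4 and 46.2%; exact p = 1), with 55.6 and 75% of the Tgtumor and 27.3 and 0% of the Mouse libraries. The estrogen receptor gene Esr1 was hit in 19 and 7, the receptor phosphatase gene Ptprk in 22 and 9, and Pcdh15 in 25 and 9. The Hippo pathway repressor Vgll4 was hit in 10 and 4, the WNT pathway kinase Tnik in 9 and 3, and Runx1 in 8 and 5 (21.1 and 38.5%; exact p = 0.274). Of the genes of the muscle membrane and its basal lamina, Utrn (utrophin) was hit in 25 and 7 (65.8 and 53.8%; exact p = 0.515) and Lama2 (a laminin chain) in 19 and 4 (50 and 30.8%; exact p = 0.336). The cohesin loader Nipbl was hit in 15 and 3 (39.5 and 23.1%; exact p = 0.336). Grik2, a glutamate receptor gene on chromosome 10, was hit in 18 and 9 (47.4 and 69.2%), with an exact p of 0.211 over tumours and 0.0494 within mice. Esr1, Ptprk, Pcdh15, Utrn and Lama2 also lie on chromosome 10, the donor chromosome, where reinsertions near the donor collect. In Cep112, 182 of the 196 anterior sites came from 1 tumour, anterior 9, which also held 30 of the 36 anterior sites in the receptor tyrosine kinase gene Erbb4.

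Genes were also counted by pathway, with the share of tumours hit in at least 1 gene of a list and, for the genes tested, the median difference beside the 2.23 points of all genes. No gene of any of the 16 lists passed the adjusted test. For the list of mammary placode and positional genes, 52.6% of anterior and 53.8% of posterior tumours were hit. Of its 29 genes, 17 had an interval and 13 were hit, and of the 4 tested 3 were higher in posterior tumours (median 8.70 points). The ectodysplasin ligand gene Eda was hit in 4 anterior and 0 posterior tumours beside the 9 and 0 of its receptor, the hedgehog effector Gli3 in 5 and 3, and the neuregulin gene Nrg3 in 5 and 4. The fibroblast growth factor gene Fgf10 was hit in 2 and 1, and Tbx3 in 0 and 1.

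The brakes of RAS-MAPK signalling were hit in 55.3% of anterior and 53.8% of posterior tumours, and 1 of the 5 tested was higher in posterior and 4 in anterior tumours (median −3.04 points). Beside Nf1, the RAS GTPase-activating gene Rasa1 was hit in 9 and 2 tumours, Spred2 in 7 and 2, and Spred1 in 6 and 2, both of the latter encoding proteins that bring neurofibromin to the membrane. The activators of RAS-MAPK signalling were hit in 21.1 and 23.1% of tumours, and 0 of them reached 5 tumours.

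The brakes of the PI3K pathway were hit in 39.5% of anterior and 30.8% of posterior tumours. Inpp4b, a phosphatase of phosphoinositides below PI3K, was hit in 8 anterior and 3 posterior tumours. PI3K pathway activators were hit in 34.2 and 23.1% of tumours, with Pik3cb, the gene of PI3K beta, in 4 and 1. Receptor tyrosine kinases were hit in 52.6 and 61.5%, led by Erbb4 in 6 and 2 tumours. The shares of tumours with a hit in a chromatin regulator were 73.7 and 53.8%, and 3 of 8 tested were higher in posterior and 5 in anterior tumours (median −0.810 points), with Asxl2 in 13 and 3.

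TGF-beta, BMP and SMAD genes were hit in 39.5% of anterior and 53.8% of posterior tumours. All 5 tested (Acvr2a, Bmpr1b, Smad3, Tgfbr2 and Tgfbr3) were higher in posterior tumours, with a median of 7.49 points and 2 posterior tumours for each. Of the members below 5 tumours, Smad2 was hit in 4 and 0, Bmpr2 in 3 and 0, and Bmpr1a in 3 and 1. Acvr1b and Smad6 were each hit in 2 and 0, Tgfbr1 and Skil in 1 and 0, and Smad1 and Smad4 in 0 and 1. In untreated tumours the list was hit in 42.6% of anterior and 27.5% of posterior tumours, the other direction. Adhesion, junction and polarity genes were hit in 84.2 and 92.3%, with 10 of 15 tested higher in posterior tumours and Magi1, a junction scaffold, in 4 and 5 tumours (exact p = 0.0364). Mammary transcription factors were hit in 89.5 and 92.3%, NOTCH, WNT and Hippo genes in 81.6 and 84.6%, cell cycle and p53 genes in 31.6 and 23.1%, and cohesin and microRNA silencing genes in 57.9 and 53.8%. Long, late-replicating genes were hit in 92.1 and 92.3%, with 11 of 25 tested higher in posterior and 14 in anterior tumours. Markers of fat, stromal, vessel and blood cells, counted as insertion targets, were hit in 18.4 and 15.4%, and the 19 genes named as recurrent in an earlier account of these data in 92.1 and 100%.

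The last comparison asked whether the gland difference in site number was particular to resistant tumours. In untreated tumours the median was 421 sites in anterior and 534.5 in posterior glands, and the ratio of geometric means was 0.891 (permutation p = 0.755). The posterior minus anterior difference was 0.161 larger on the log10 scale in resistant than in untreated tumours, which did not pass the test (permutation of glands within treatment, p = 0.537). Without the repeat library, an alternative chosen after seeing the data, the untreated ratio was 0.798 and the difference 0.209 (permutation p = 0.411). Within mice the difference between treatments was 0.333 (permutation p = 0.224).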

How the data were processed

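Transposon insertion sites were mapped in genomic DNA by splinkerette PCR from the 5′ arm and sequenced in 4 pools, per the labels' protocols. Coordinates are those of mm10, per the submitters' processing notes. For the aligner and the caller, names are not given in the sources used here. Per library, the authors deposited an unscaled read count at each of 198107 sites, and 13391 gene intervals, of which 12384 identifiers matched the RefSeq table. Further whole-number columns of the authors, which the headers do not define, entered alternatives only, and 435 other deposited library columns were not used. Sites of 10 or more reads were kept in the tumour with most reads. In 12 cases of a tie the position was left in no tumour, and the 3 positions read in every resistant library were dropped. Depth ranged from 51 to 1604365 reads, and intervals on shares cover counting error only. No exon, intron or UTR was assigned.

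Python 3.11.15, numpy 2.4.6, pandas 2.3.3, scipy 1.17.1, statsmodels 0.14.6 and matplotlib 3.10.9 were used. Measures were compared by two-sided permutation over tumours (100000 resamples, or exact enumeration where few arrangements exist), and genes by Fisher's exact test, both adjusted by Benjamini-Hochberg. Tumours are paired by the mouse number in their titles, so each comparison was repeated with the mouse as a replicate block by exact exchange within mice. Tumours of 1 mouse are not independent, and the p-values over tumours treat them as if they were. The code was tested on simulated data. Genes to name were drawn from any past the adjusted threshold, the 10 of smallest p in each direction, the 8 with the largest share in each group, the recurrent genes, and up to 4 of each list, and not every eligible gene is described. Others are named as list members or after their values were seen. The gland groups and gene lists were chosen with earlier results of these data known. 1 title lacked the point after the mouse number and was read as mouse 646087. Alternatives changed the read minimum, assignment, libraries, columns and gene filter. Results for some list genes are not reported here.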

Additional observations from a re-analysis of the deposited data

Results flagged for a closer look

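Within single glands, each set of 4 to 10 tumours was searched for a lone value far from the rest by Dixon's criterion, in 27 sets of gland and measure. Chance alone marks about 1 in 20 such sets. In gland 1, anterior 24 held 2793 sites, far above the other 3 tumours. Also in gland 1, anterior 2 had 20.22% of its sites on chromosome 10, above the other 3. In gland 5, the top site of posterior 12 held 16.52% of the reads at its kept sites, more than in the other 8 tumours, and that position was read in 23 resistant libraries.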

How the results depend on the processing

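None of the 762 genes, nor any gene in the 23 alternatives, passed the adjusted threshold. The number with an unadjusted p under 0.05 was 14, and depended on the setting. It was 47 with sites of 1 read, 43 with genes of 3 tumours, 8 for gland 5 alone, 3 with genes of 10 tumours, and 2 each with 100 reads, 0.1% of reads, Mouse libraries or thinning to 20000 reads. It was 0 among the 100 largest sites of each tumour. In a logistic model with site number as a covariate it was 64, with 41 of them anterior-high, by an approximate likelihood ratio test. Edar, with 0 posterior tumours hit, had p = 0.00782 in that test, and the smallest adjusted p was 0.546. Leaving out posterior 3 gave 8 and leaving out anterior 9 gave 18. Alternatives chosen after seeing the data, to which leaving out these 2 tumours and dropping widely read positions also belong, gave 1 with 2 or more in the column headed div, 7 without libraries with over 60% common reads, 7 with the replicate block without libraries under 10000 reads, and 4 with the replicate block by mouse and title form. The replicate block alone gave 12 and changed no call.

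The site ratio kept its direction without each tumour or mouse in turn (1.10 to 1.70), but was 0.899 without libraries with over 60% common reads, as were genes hit (0.902). The chromosome 10 difference was −0.285 points under the replicate block, with or without libraries under 10000 reads, and −0.0569 by mouse and title form. The in-gene difference turned to −0.693 (1 read), −1.69 (100 reads), −0.843 (Tgtumor) and −0.285 (gland 5). The top-site difference turned to 2.45 (Mouse), 0.589 (other column) 1.14 (without widely read positions) and 1.31 (replicate block by mouse and title form). The gland difference between treatments turned to −0.0610 without libraries under 10000 reads and −0.0835 after thinning. Among genes, Stag1 turned to −2.63 points at 100 reads or 0.1% of reads and −9.09 in Mouse libraries, Cep128 to −2.63 at 0.1% or the 100 largest sites and −2.86 after thinning, Specc1l to −2.63 at 0.1% or the 100 largest sites, and Trdn to −5.26 in the div column. The causes were not tested. With 13 posterior tumours the interval of the site ratio ran from 0.503 to 3.34, so differences within it could not be seen.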
